A study of Oryctolagus cuniculus with 6 samples.

Results

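Transcripts of 10 genes of the epidermal growth factor (EGF) receptor system were examined in primary limbal stem cells (LSCs) of the rabbit: the receptors EGFR, ERBB2 and ERBB3, the ligands AREG, EREG, HBEGF, TGFA, BTC and EPGN, and the receptor inhibitor ERRFI1. The genes were chosen by name as receptors and ligands of corneal wound repair, and they are 10 of the 22190 genes in the table. Of these, 9 were listed under their symbol. ERBB3 was listed as LOC100008807, described as receptor tyrosine-protein kinase erbB-3, and was matched by its NCBI gene identifier. All 10 passed the filter on low counts, which kept 15029 genes.

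LSCs grew out of limbal explants plated in keratinocyte medium, and RNA-seq libraries were made from 3 fresh and 3 preconditioned samples. In the fresh group, the explants came from corneas that had not been frozen. In the preconditioned group, whole corneas had been kept for 7 days in liquid nitrogen in a cryomedium of DMEM/F12, fetal bovine serum and dimethyl sulfoxide to which the inflammatory cytokine IL-1β had been added at 10 ng/mL, and were thawed before the explants were plated. Freezing, serum, dimethyl sulfoxide and IL-1β were applied together, so that their effects cannot be told apart here. The strain, age and sex of the rabbits and the animal behind each library are not given in the sources used here, and p values therefore measure the spread between these samples, which may be partly technical.

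The EGF receptor is a tyrosine kinase on the cell surface. Its ligands are made as membrane-anchored precursors and are released by metalloproteases of the ADAM family. Binding of a ligand joins receptors in pairs, often with ERBB2, which has no known soluble ligand, or with ERBB3, which binds neuregulins and has a weak kinase of its own. The signal runs through RAS, ERK and AKT, and it is damped by inhibitors such as ERRFI1 and by uptake and degradation of the receptor. In the corneal epithelium this system is known for driving migration and proliferation after a wound, and shed HBEGF is one of its main local ligands.

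The libraries held 31952352 to 34327534 counts on genes, and libraries of one group differed by more than sampling noise. Levels are given below in CPM, the counts of a gene relative to the total of its library, with libraries scaled by the TMM method, and, where different genes are compared, in FPKM, which also divides by 1 length per gene. On the first principal component of all tested genes (50.4% of the variance), fresh libraries lay from −53.1 to −41.1, preconditioned replicates 2 and 3 at 58.3 and 70.4, and preconditioned replicate 1 between the groups at 8.13. Results that rest on this library are given with and without it. Genes were called at an adjusted p (Benjamini-Hochberg) up to 0.05 in edgeR's quasi-likelihood test together with a log2 fold change of 1 or more in either direction. Fold changes are preconditioned against fresh and the main estimates for the 10 genes stand with their standard error (SE).

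None of the 10 genes was called, where 2.29% of all tested genes were (344 of 15029), 1.08% as higher and 1.20% as lower. By the adjusted p alone 0 of the 10 passed, against 5.08% of tested genes in either direction and 2.20% with a lower level. With edgeR, 1 of the 10 had an unadjusted p under 0.05, namely ERBB2, against 30.6% of all tested genes, and DESeq2, which called 1190 genes in all, and limma also called 0 of the 10. Their log2 fold changes ran from −1.01 to 0.33 with a median of −0.13, beside a median of 0.01 over all tested genes. The values were below 0 for 8 of the 10, as they were for 49.5% of tested genes. Libraries of both groups did not overlap for 1 of the 10, where 36.7% of tested genes were separated in this way, 17.9% with the preconditioned group higher.

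**Figure D1:**
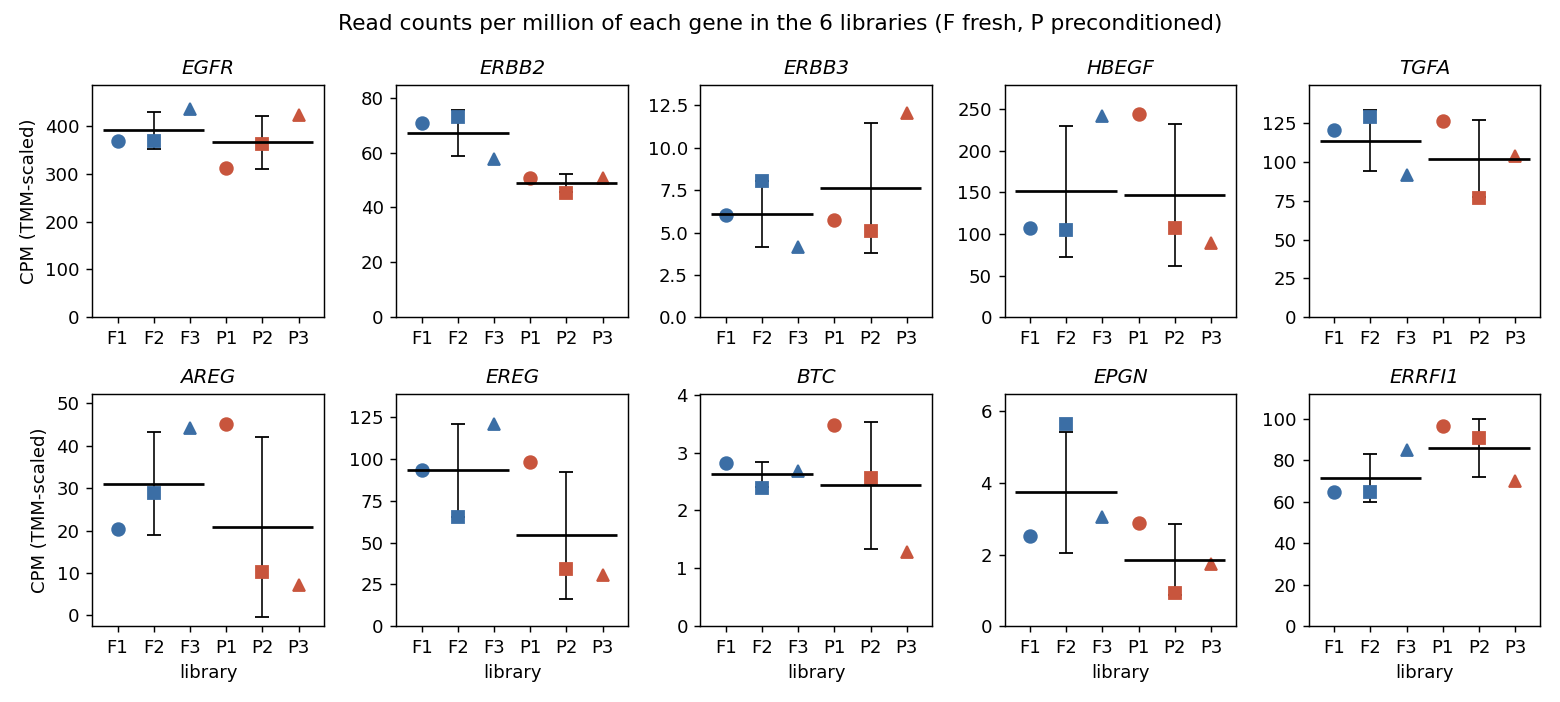
CPM (y axis, TMM-scaled) of the 10 genes in the 6 libraries (x axis, F fresh, P preconditioned, numbered by replicate). Points are libraries, horizontal lines are group means and bars are ± 1 SD (n = 3). ERBB2 is the gene whose groups do not overlap, and AREG and EREG are low in P2 and P3 but not in P1.

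ERBB2, the partner receptor that amplifies signals of the others, was the gene of the 10 with the lowest adjusted p. Its level was 70.6, 73.1 and 57.6 CPM in fresh replicates 1 to 3 and 50.9, 45.2 and 50.6 CPM in preconditioned replicates 1 to 3. Every preconditioned library was below every fresh library, as for 18.8% of all tested genes. The group means were 67.1 ± 8.33 and 48.9 ± 3.22 CPM (SD, n = 3 each). This is a log2 fold change of −0.46 (SE 0.13, 95% interval −0.76 to −0.16 before adjustment, edgeR adjusted p = 0.072). An exact permutation test cannot give a p below 0.1 with 3 samples against 3. Without preconditioned replicate 1, which lay between the groups over all genes, the log2 fold change was −0.50 (edgeR adjusted p = 0.042), so that the p cutoff was met and the fold cutoff was not. The adjusted p was also under 0.05 with DESeq2 (0.044), with scaling by library size alone (0.040) and with limma on log2(FPKM + 1) (0.041) and log2(FPKM + 0.1) (0.044), of which the last 3 move the median log2 fold change of all genes to −0.16, −0.14 and −0.17. It was above 0.05 with DESeq2's size factors in edgeR (0.075), with no filter on low counts (0.081), with a filter at 1 CPM (0.067), with replicate numbers blocked (0.16) and without any one of the other 5 libraries (0.10 to 0.22). In bulk samples, fewer cells that express a gene and less RNA per cell cannot be told apart.

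EGFR, the receptor shared by the 6 ligands studied here, was the most abundant of the 3 receptors in every library. Its level was 368, 369 and 436 CPM in the fresh libraries and 313, 362 and 424 CPM in the preconditioned libraries. The groups overlapped widely. EGFR had a log2 fold change of −0.09 (SE 0.15, edgeR adjusted p = 0.69), with a 95% interval from −0.44 to 0.25, that is from 0.738-fold to 1.19-fold. Within each library, which needs no scaling, EGFR exceeded ERBB2 in FPKM by 2.36-, 2.28- and 3.42-fold in the fresh group and by 2.78-, 3.63- and 3.79-fold in the preconditioned group. Fresh replicate 3 therefore lay within the range of the preconditioned group for this ratio.

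ERBB3, the neuregulin receptor, was expressed at much lower levels than the other receptors. It had 209, 285 and 151 counts in the fresh libraries and 188, 160 and 366 counts in the preconditioned libraries, or 6.06, 8.02 and 4.13 CPM against 5.72, 5.12 and 12.05 CPM. Preconditioned replicate 3 alone stood above the fresh range. The log2 fold change of 0.33 (SE 0.40, edgeR adjusted p = 0.61) became −0.16 without that library. EGFR exceeded ERBB3 by 20.6- to 61.8-fold in FPKM over the 6 libraries. Transcripts of ERBB4, the remaining receptor of the family, were nearly absent, with 6 counts in fresh replicate 2 and 0 in the other 5 libraries, where 0 counts allow up to 3.

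Set side by side per length, the fresh group fell into a high and a low set of genes. HBEGF had the highest mean (70.7 ± 36.9 FPKM, SD, n = 3), followed by EGFR (41.4 ± 4.29 FPKM), and their libraries did not overlap. TGFA (28.1 ± 4.75 FPKM), AREG (26.5 ± 10.4 FPKM), ERRFI1 (25.2 ± 4.22 FPKM) and EREG (25.2 ± 7.58 FPKM) formed a run in which each overlapped the next. ERBB2 followed at 15.7 ± 1.89 FPKM, below the lowest value of EREG. BTC (1.28 ± 0.103 FPKM), EPGN (1.15 ± 0.516 FPKM) and ERBB3 (1.10 ± 0.350 FPKM) overlapped each other and were separated from ERBB2 by more than 10-fold in means.

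The same 7 genes stood above the same 3 in the preconditioned group. HBEGF (61.5 ± 37.0 FPKM) and EGFR (34.5 ± 5.19 FPKM) again had the highest means, now with overlapping libraries. Next came ERRFI1 (26.9 ± 4.45 FPKM) and TGFA (22.6 ± 6.06 FPKM), and AREG (16.0 ± 16.5 FPKM), EREG (13.2 ± 9.46 FPKM) and ERBB2 (10.2 ± 0.942 FPKM) followed, each overlapping the next. For AREG the SD exceeded the mean. The low set was ERBB3 (1.23 ± 0.630 FPKM), BTC (1.06 ± 0.488 FPKM) and EPGN (0.511 ± 0.282 FPKM).

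**Figure D2:**
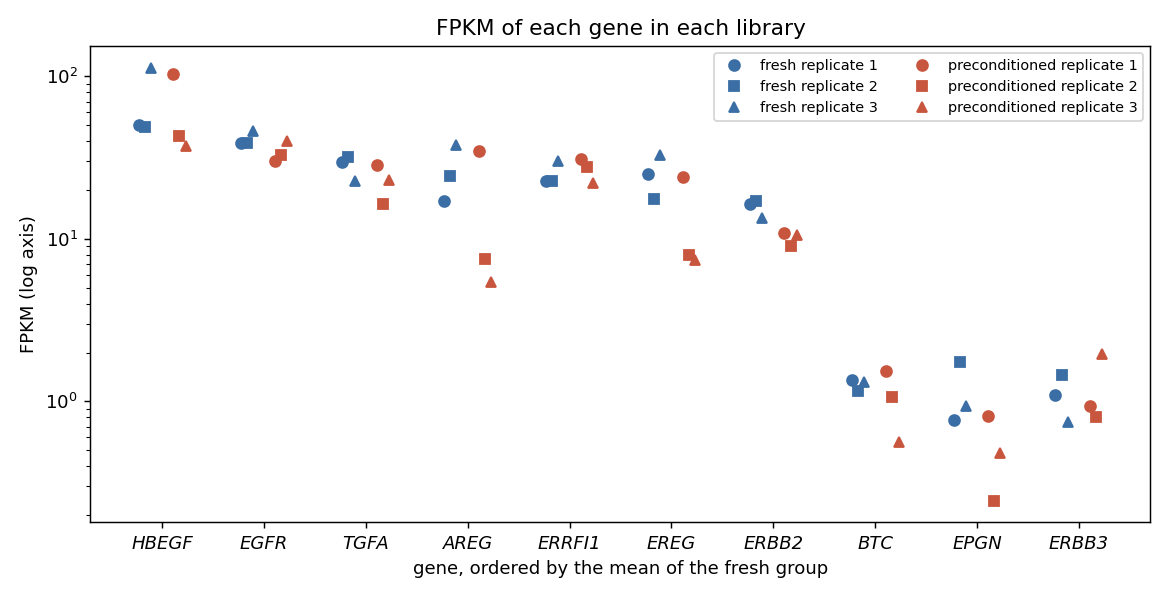
FPKM (y axis, log scale) of the 10 genes (x axis, in the order of the fresh means) in the 6 libraries, with the symbol giving the replicate and the colour the group. BTC, EPGN and ERBB3 lie below 2 FPKM in every library, and the other 7 genes lie above 5 FPKM.

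HBEGF, a heparin-binding ligand that is shed in corneal wounds, varied more within the groups than between them. Its level was 107, 105 and 241 CPM in the fresh libraries and 245, 107 and 88.9 CPM in the preconditioned libraries. Fresh replicate 3 and preconditioned replicate 1 were both far above the other 4 libraries, which lay between 88.9 and 107 CPM. The log2 fold change was accordingly close to 0 (−0.04, SE 0.48, edgeR adjusted p = 0.96), but its 95% interval from −1.19 to 1.11 runs from 0.437-fold to 2.16-fold. The sign depended on single libraries: the value was 0.47 without fresh replicate 3 and −0.64 without preconditioned replicate 1.

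TGFA, a ligand that epithelial cells make for their own EGF receptor, had 120, 129 and 91.5 CPM in the fresh libraries and 126, 76.5 and 104 CPM in the preconditioned libraries. Only preconditioned replicate 2 was below the fresh range. For TGFA this gave a log2 fold change of −0.15 (SE 0.21, 95% interval −0.64 to 0.34, edgeR adjusted p = 0.65).

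AREG and EREG encode amphiregulin and epiregulin, ligands of low affinity that are known to be induced by EGF receptor signalling itself. AREG had 20.3, 28.8 and 44.1 CPM in the fresh libraries, and 45.2, 10.2 and 7.15 CPM in the preconditioned libraries. EREG had 93.3, 65.6 and 121 CPM in the fresh libraries, and 98.2, 34.5 and 30.8 CPM in the preconditioned libraries. For both genes, preconditioned replicates 2 and 3 were below all fresh libraries, while preconditioned replicate 1 was above the fresh range for AREG and within it for EREG. With all 6 libraries, the log2 fold change was −0.57 for AREG (SE 0.70, 95% interval −2.24 to 1.09, edgeR adjusted p = 0.61) and −0.78 for EREG (SE 0.48, 95% interval −1.92 to 0.36, edgeR adjusted p = 0.31).

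Without preconditioned replicate 1, both genes were called as lower, AREG with a log2 fold change of −1.85 (edgeR adjusted p = 0.021) and EREG with −1.53 (edgeR adjusted p = 0.014). The same fit called 6.01% of its tested genes as lower (930 of 15473) and 9.99% in either direction, so that calls were frequent in it. When any of the other 5 libraries was left out, neither gene was called, and the log2 fold changes ran from −0.81 to −0.16 for AREG and from −0.98 to −0.49 for EREG. Calls were rare in these 5 fits, with 14 to 72 genes in all. For AREG the log2 difference was −1.06 with limma on log2(FPKM + 1) (adjusted p = 0.28), a fit that also changes the scaling between libraries and the filter. In edgeR, AREG stood at −0.73 with scaling by library size alone and at −0.58 with a filter at 1 CPM.

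EPGN, the epithelial mitogen, had the lowest log2 fold change of the 10 genes. It had 87, 201 and 111 counts in the fresh libraries and 95, 29 and 53 counts in the preconditioned libraries, which are 2.52, 5.65 and 3.04 CPM against 2.89, 0.927 and 1.75 CPM. As for AREG and EREG, preconditioned replicates 2 and 3 were below all fresh libraries and replicate 1 was not. EPGN differed by a log2 fold change of −1.01 (SE 0.50, 95% interval −2.19 to 0.18, edgeR adjusted p = 0.22), and leaving out single libraries gave values between −1.50 and −0.58. BTC, which encodes betacellulin, a ligand of both EGFR and ERBB4, had 97, 85 and 98 counts in the fresh libraries and 114, 80 and 39 in the preconditioned libraries. Preconditioned replicate 3 alone was low. BTC had a log2 fold change of −0.11 (SE 0.40, edgeR adjusted p = 0.88), and the value was 0.20 without that library.

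The 4 ligand genes BTC, AREG, EREG and EPGN follow each other on a single chromosome in this order in the RefSeq table of rabbit genes (assembly mOryCun1.1), with no other listed gene between the first and the last. Of these neighbours, AREG, EREG and EPGN shared the pattern in which preconditioned replicates 2 and 3 were below all fresh libraries and replicate 1 was not, and BTC did not. This pattern was noticed in the values and was found in 11.4% of all tested genes. For all 6 ligands, and for 7 of the 10 genes, the lowest library was preconditioned replicate 2 or 3, as for 40.4% of all tested genes. This, too, was noticed in the values. Whether the neighbourhood plays a part was not tested.

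**Figure D3:**
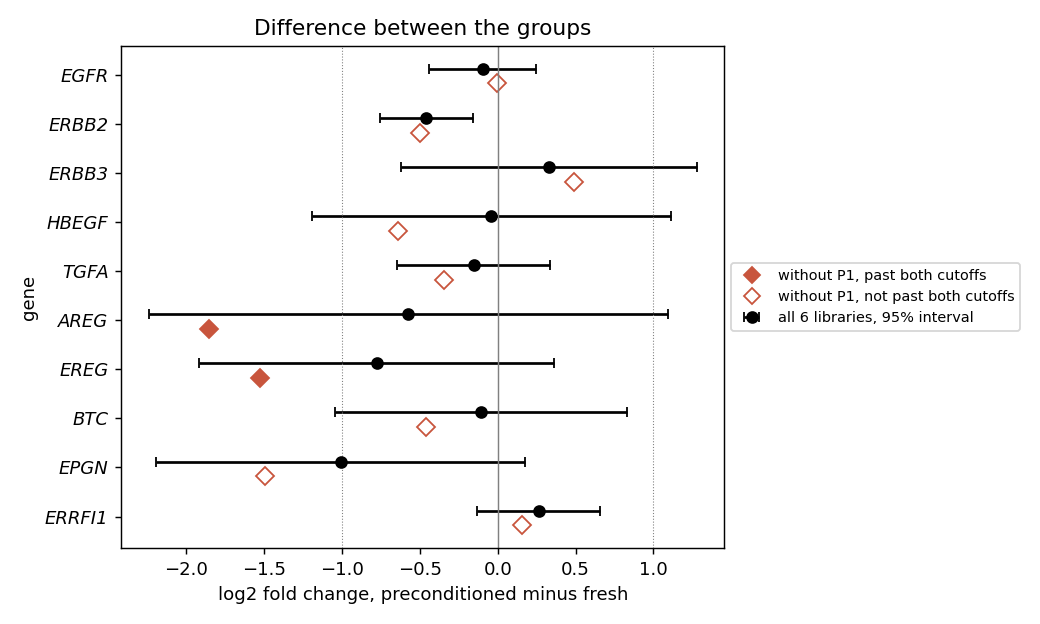
Log2 fold change (x axis, preconditioned minus fresh) of the 10 genes (y axis). Circles with bars are edgeR estimates with 95% intervals before adjustment from all 6 libraries, and diamonds are estimates without preconditioned replicate 1 (P1), filled where past both cutoffs, which holds for AREG (−1.85) and EREG (−1.53).

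ERRFI1 encodes an inhibitor that binds the kinase domain of EGF receptors and is induced by their signal. Its level was 64.7, 64.8 and 84.9 CPM in the fresh libraries and 96.6, 90.7 and 70.1 CPM in the preconditioned libraries. Preconditioned replicates 1 and 2 were above the fresh range and replicate 3 was within it. Its log2 fold change was 0.26 (SE 0.17, 95% interval −0.13 to 0.66, edgeR adjusted p = 0.32), and it stayed above 0 in each of the 6 fits that left out a library, from 0.16 to 0.40.

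The make-up of the ligand transcripts was then compared within each library, as a share of the summed FPKM of the 6 ligands. The sum was 124, 126 and 209 FPKM in the fresh libraries and 194, 76.2 and 74.2 FPKM in the preconditioned libraries. Fresh replicate 3 and preconditioned replicate 1 had the most ligand transcripts, and preconditioned replicates 2 and 3 had the least. Per length, HBEGF held the largest share in each of the 6 libraries, with 40.3%, 38.8% and 54.2% in the fresh group and 53.6%, 56.5% and 50.2% in the preconditioned group. TGFA held 23.9%, 25.3% and 10.9% in the fresh libraries and 14.7%, 21.4% and 31.0% in the preconditioned ones. The share of AREG was 13.9%, 19.5% and 18.1% in the fresh libraries and 18.1%, 9.82% and 7.35% in preconditioned replicates 1 to 3. Its share of the summed CPM was lower, at 5.85%, 8.57% and 8.75% against 8.68%, 4.40% and 3.06%. BTC and EPGN together never reached 3%. In shares of CPM, which favour long transcripts, TGFA was ahead of HBEGF in fresh replicates 1 and 2 and in preconditioned replicate 3.

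EREG was the only ligand of the 6 whose share did not overlap between the groups. It was 20.2%, 14.1% and 15.7% in the fresh libraries and 12.4%, 10.5% and 10.03% in the preconditioned libraries, so that preconditioned replicate 1, which matched the fresh libraries in the level of EREG, was below them in its share. As means, EREG held 16.7 ± 3.18% of the fresh sums (SD, n = 3), against 10.99 ± 1.27% of the preconditioned ones. The groups also did not overlap when shares were taken of CPM, with 19.5% or more in each fresh library and 18.9% or less in each preconditioned library. Shares of 6 ligands depend on each other, and no test was made of them. In levels, rather than shares, 18.8% of all tested genes had every preconditioned library below every fresh library.

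**Figure D4:**
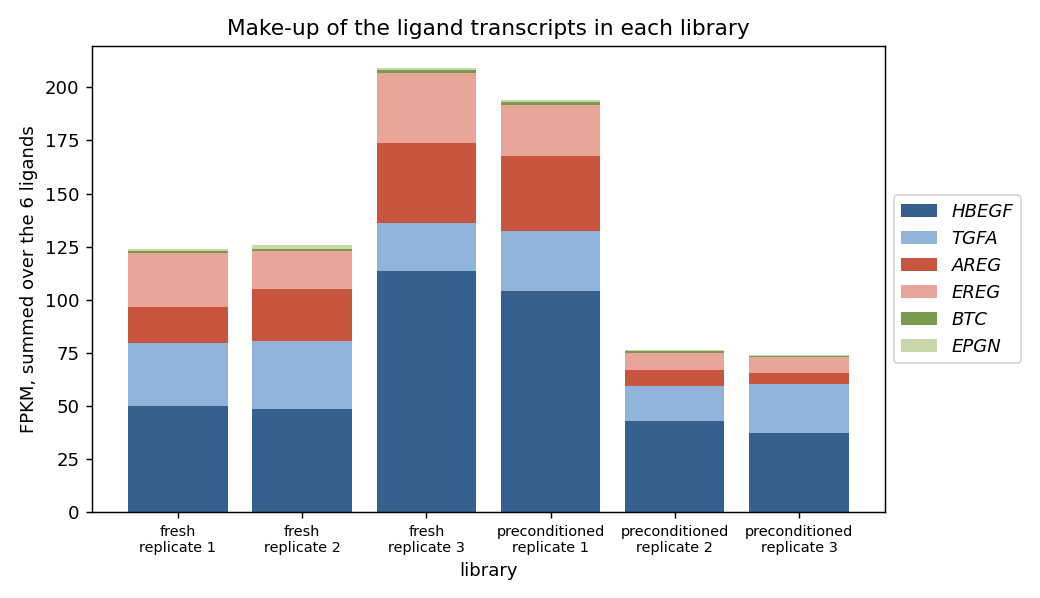
FPKM of the 6 ligands, stacked (y axis), in each library (x axis). HBEGF is the largest part of each bar, and the sums of preconditioned replicates 2 and 3 (76.2 and 74.2 FPKM) are the lowest of the 6 libraries.

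The other genes of the pathway were taken from 5 lists by function, and 63 of the 70 listed genes were tested. Of these, 2 were called as higher, ADAM9 and DUSP4, and 1 as lower, LRIG3, where 2.29% of all tested genes were called. All 3 calls were lost when any single library other than preconditioned replicate 1 was left out. Those fits called only 14 to 72 genes in all, against 344 with all 6 libraries. Among the other ligands of the family, NRG1, which encodes neuregulin 1, a ligand of ERBB3, was by far the most abundant. It had 215, 225 and 211 CPM in the fresh libraries and 128, 39.6 and 45.3 CPM in the preconditioned libraries. Every preconditioned library was below every fresh library, and replicate 1 was again the nearest to them. NRG1 had a log2 fold change of −1.62 (SE 0.44, edgeR adjusted p = 0.072) and was not called, although it was called with DESeq2 (adjusted p = 0.0017), with limma on both FPKM scales (adjusted p = 0.039 and 0.043) and without preconditioned replicate 1 (−2.37, edgeR adjusted p = 0.0012). EGF itself was low, with 94 to 113 counts per library and a log2 fold change of 0.16 (edgeR adjusted p = 0.70). NRG4 had a log2 fold change of −0.46 (edgeR adjusted p = 0.51), and NRG2, NRG3 and ERBB4 had too few counts to be tested.

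Of the 10 genes for ligand shedding, 1 was called. ADAM9, a membrane metalloprotease that can release HBEGF, had 497, 397 and 571 CPM in the fresh libraries and 884, 1313 and 1148 CPM in the preconditioned libraries. All preconditioned libraries were above all fresh libraries. ADAM9 rose with a log2 fold change of 1.19 (SE 0.20, edgeR adjusted p = 0.035), that is 2.28-fold. ADAM12, a related protease, had the largest log2 fold change of the list (1.92, SE 0.60, edgeR adjusted p = 0.089) at much lower levels, 0.783, 4.28 and 4.51 CPM against 13.1, 14.2 and 9.09 CPM. RHBDF2, which encodes the iRhom2 protein that brings the main sheddase ADAM17 to the cell surface, had a log2 fold change of −0.49 (edgeR adjusted p = 0.071). The median log2 fold change of the list was 0.05, and ADAM17 itself had one of 0.08 (edgeR adjusted p = 0.65).

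Receptor turnover and inhibition was covered by 9 tested genes, of which 1 was called. LRIG3, of a family of transmembrane proteins that includes the receptor inhibitor LRIG1, fell from 18.8, 18.9 and 18.7 CPM in the fresh libraries to 11.7, 8.03 and 6.06 CPM in the preconditioned libraries. The fresh libraries were nearly equal and all preconditioned libraries were below them. Its log2 fold change was −1.13 (SE 0.25, edgeR adjusted p = 0.049), just inside the cutoff. SH3KBP1, an adaptor for receptor uptake, had a log2 fold change of 0.54 (edgeR adjusted p = 0.10), and USP8, a deubiquitinase of sorting endosomes, had 0.41 (edgeR adjusted p = 0.15). The list had a median of 0.15.

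None of the 25 tested adaptors and kinases was called, with 10 of them at an unadjusted p under 0.05 in edgeR, where 30.6% of all tested genes were, and 0 called by DESeq2. Their log2 fold changes were small, from −0.50 to 0.80 with a median of 0.07. GAB2 (0.80, edgeR adjusted p = 0.43) and GAB1 (0.71, edgeR adjusted p = 0.19), docking proteins of the receptors, had the highest values. PLCG1, a phospholipase that binds activated EGF receptors, had the lowest (−0.50, edgeR adjusted p = 0.054), with 83.8, 77.7 and 75.3 CPM in the fresh libraries and 56.7, 49.4 and 61.4 CPM in the preconditioned libraries.

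Among 16 tested genes known to be induced by ERK signalling, 1 was called. DUSP4, a phosphatase that switches off MAP kinases in the nucleus, rose from 28.9, 30.1 and 54.4 CPM in the fresh libraries to 72.8, 168 and 153 CPM in the preconditioned libraries. All preconditioned libraries were above all fresh libraries, with replicate 1 the lowest of them. DUSP4 had a log2 fold change of 1.80 (SE 0.38, edgeR adjusted p = 0.048), that is 3.47-fold, and it was not called with no filter on low counts (edgeR adjusted p = 0.075). EPHA4 (0.86, edgeR adjusted p = 0.29) and the immediate early gene EGR1 (0.83, edgeR adjusted p = 0.085) had the next largest values. The list had a median log2 fold change of 0.09, with 10 genes above 0 and 6 below.

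**Figure D5:**
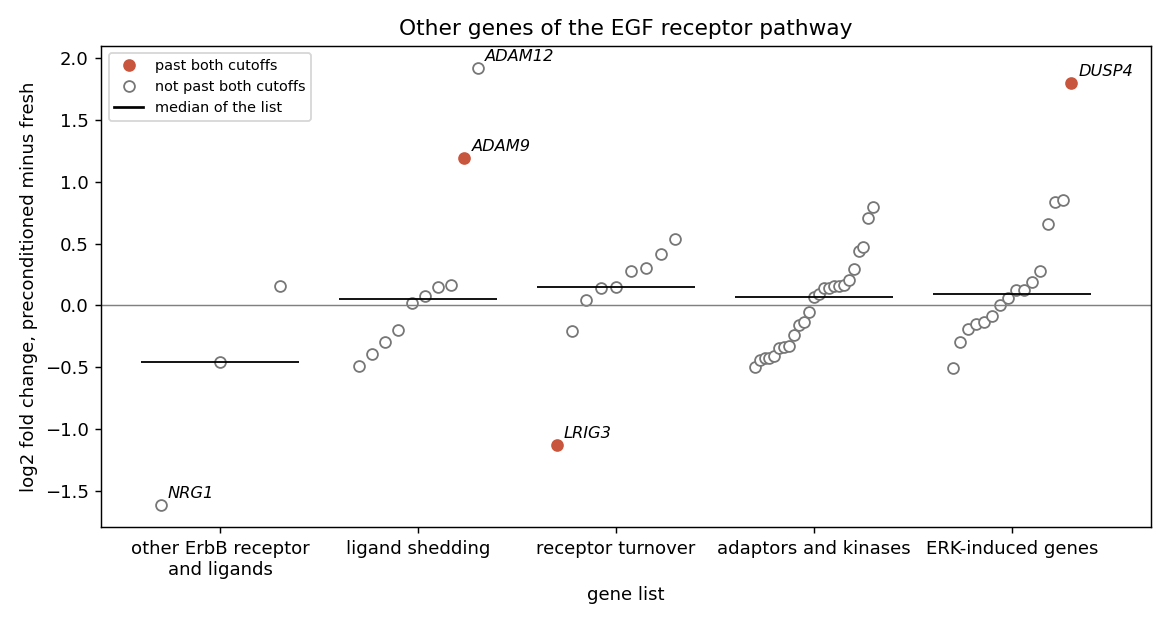
Log2 fold change (y axis, preconditioned minus fresh) of the 63 tested genes in 5 lists (x axis). Filled points are the called genes ADAM9, LRIG3 and DUSP4, open points were not called, and horizontal lines are list medians, from −0.46 for the 3 other ErbB ligands to 0.15 for receptor turnover.

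Markers of the cell types that the outgrowths could hold were read beside these results. Of 10 markers of limbal and corneal epithelium, 7 were measured, with a summed level of 9758 to 13488 CPM in the fresh libraries and 9167 to 13502 CPM in the preconditioned libraries. Over the 7, edgeR's adjusted p was 0.059 or more, and 3 had a log2 fold change above 0 and 4 below. TP63, the transcription factor by which LSCs are recognised, had 246, 226 and 239 CPM in the fresh libraries and 183, 122 and 112 CPM in the preconditioned libraries, a log2 fold change of −0.77 (edgeR adjusted p = 0.059). EPCAM, an epithelial adhesion molecule, differed in the other direction, with 91.8, 79.4 and 77.5 CPM against 102, 126 and 125 CPM (0.50, edgeR adjusted p = 0.060), and PAX6, a transcription factor of the eye, had a value of 0.81 (edgeR adjusted p = 0.11). KRT3, a keratin of differentiated corneal epithelium, had the largest difference of the list and varied widely, with 961, 2655 and 409 CPM in the fresh libraries and 801, 239 and 697 CPM in the preconditioned libraries (−1.21, edgeR adjusted p = 0.30). KRT5 made up most of the summed level. Conjunctival and goblet cell markers summed to 2877 to 5121 CPM in fresh and 2584 to 5058 CPM in preconditioned libraries. Nearly all of this came from KRT19, KRT7 and KRT8. Of the same list, MUC5AC had at most 2 counts in each library, TFF3 at most 1 and SPDEF at most 14. KRT13 had 8.26, 20.6 and 8.78 CPM in the fresh libraries and 61.1, 8.95 and 3.92 CPM in the preconditioned libraries. Among the 4 tested genes of the list, 3 had a log2 fold change above 0 and 1 below. The 9 stromal markers summed to 472 to 1036 CPM and to 779 to 1630 CPM, with an adjusted p of 0.17 or more for each in edgeR. Their directions were mixed, with 5 above 0 and 4 below, from −1.27 for KERA to 1.11 for COL1A2. Leukocyte markers summed to 104 to 136 CPM and 125 to 322 CPM, nearly all of it from CD68. All 5 that were tested had a log2 fold change above 0, as did 7595 of all 15029 tested genes. The smallest was that of CD14 (0.02, edgeR adjusted p = 0.98). CD68 had 97.6, 129 and 93.4 CPM in the fresh libraries and 121, 299.6 and 288 CPM in the preconditioned libraries (1.14, edgeR adjusted p = 0.085), so that replicates 2 and 3 were above all fresh libraries. Preconditioned replicate 2 was also the highest library for PTPRC, the general leukocyte gene (47 counts, against 7 to 17 in the others), for CSF1R (148 counts, against 22 to 57) and for CD163 (146 counts, against 5 to 77). For PTPRC, CSF1R and CD163, preconditioned replicate 3 lay within the range of the fresh libraries in CPM. The T cell gene CD3E had at most 1 count in each library. Melanocyte markers summed to at most 6.39 CPM in every library, with MLANA, PMEL and TYR at 3 counts or fewer. TYRP1, of the same list, had 10, 9 and 6 counts in the fresh libraries and 4, 50 and 79 in the preconditioned libraries (log2 fold change 2.59, edgeR adjusted p = 0.12), and was thus high in replicates 2 and 3. MITF, the other tested gene of this list, lay lower in all preconditioned libraries, with 4.38, 4.22 and 5.44 CPM against 2.19, 3.29 and 3.69 CPM (−0.61, edgeR adjusted p = 0.20). Endothelial markers summed to at most 13.4 CPM, mostly from PECAM1, which had 400 counts in preconditioned replicate 2 against 29 to 151 in the other libraries. The rest of the list had too few counts to be tested. VWF had 0, 6 and 8 counts in the fresh libraries and 1, 0 and 0 in the preconditioned libraries. KDR had 5, 0 and 6 against 1, 0 and 0, CDH5 had 0, 2 and 3 against 4, 7 and 6, and CLDN5 had 4, 6 and 7 against 1, 12 and 2. The part that a changed mixture of cells plays in the levels of ERBB2, NRG1, AREG and EREG was not tested.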

How the data were processed

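RNA-seq was analysed in 6 libraries of LSCs, 3 fresh and 3 preconditioned, grouped by their titles. Per the methods, reads were mapped by hisat2 and assigned to genes by htseq-count. The authors deposited these raw counts and, beside them, FPKM values, in which a count is scaled by the total of its library and 1 length per gene. The genome build, annotation, strand setting and length definition are not given in the sources used here, and reads of overlapping genes on opposite strands may not have been separated. The 10 genes, the lists and the named genes were chosen with earlier results of these data known. Named from the pathway lists were called genes and up to 3 tested genes with the largest absolute log2 fold change in each. ERBB4, NRG2, NRG3, ADAM17 and the single cell type markers fall outside this rule and were named after their values were seen.

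Differential expression was fitted to the counts by edgeR 4.0.16 (R 4.3.3, filterByExpr, TMM, robust quasi-likelihood test, condition as the only factor) over 15029 genes, with Benjamini-Hochberg adjustment over all of them. Standard errors and 95% intervals were derived from the F statistic. Alternatives were DESeq2 1.42.0, limma 3.58.1 on log2(FPKM + 1) and log2(FPKM + 0.1), other scalings and filters, the replicate number as a block, no fold cutoff, and leaving out each library. The fits were tested on simulated counts.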

Additional observations from a re-analysis of the deposited data

How the results depend on the processing

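None of the 10 genes was called in the 9 alternatives that used all 6 libraries, and 0 to 2 were called when each library was left out, the 2 being AREG and EREG without preconditioned replicate 1. For the single genes, 142 of 150 alternative values kept their direction and their call, which needs both cutoffs except in the alternative with no fold cutoff. That alternative reuses the main fit, so its estimates are the same by design. As none of the 10 genes was called in the main fit, no call could be lost, and the count is no measure of robustness. Single cutoffs were crossed without a change of call, the p cutoff by ERBB2 and the fold cutoff by EPGN (−0.50 to −0.96 in 4 alternatives), AREG (−1.04 to −1.15 in 3) and EREG (−1.04 and −1.11). Signs turned only when a library was left out. Over these 6 fits HBEGF ran from −0.64 to 0.47 on the log2 scale, being above 0 without fresh replicate 3 (0.47), preconditioned replicate 2 (0.14) or preconditioned replicate 3 (0.22). TGFA ran from −0.35 to 0.018, above 0 without preconditioned replicate 2, ERBB3 from −0.16 to 0.58 and BTC from −0.46 to 0.20, both turning without preconditioned replicate 3. The cause was not tested.

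Over all genes, 344 calls (163 higher, 181 lower) became 1190 with DESeq2 (553 higher, 637 lower), 565 with library size alone (142 higher, 423 lower), 763 with no fold cutoff (433 higher, 330 lower), 576 on log2(FPKM + 0.1) (133 higher, 443 lower), and 14 to 1546 when each library was left out, the highest without preconditioned replicate 1. On log2(FPKM + 1) there were 95 higher and 269 lower calls. The median log2 fold change of all genes moved from 0.01 to −0.16 with library size alone and to −0.14 and −0.17 on the FPKM scales, and none of the 10 genes changed sign there, although EPGN stood at −0.50 on log2(FPKM + 1), a scale that understates changes of low genes. Of the pathway genes, 3 calls became 5 with DESeq2, which added NRG1 and ADAM12, 4 on both FPKM scales with limma, which added NRG1, 2 with no filter on low counts, which lost DUSP4, and 0 to 4 when each library was left out.

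With the replicate number as a block, 30 genes and 0 pathway genes were called, and AREG stood at −1.04 on the log2 scale (edgeR adjusted p = 0.50). Libraries of the same number did not deviate together (r from −0.109 to −0.067 across genes), and the labels do not say that they share an animal, so the numbers were not taken as pairs.

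Taken of CPM in place of FPKM, the mean shares in the ligand sum were 7.73% (fresh) and 5.38% (preconditioned) for AREG, 23.5% and 15.6% for EREG, 30.4% and 33.9% for TGFA, and 43.8% for HBEGF in the preconditioned group.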
